A study of Drosophila melanogaster with 16 samples.

Results

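The Osiris and Tweedle genes were followed across naïve Drosophila embryos in which the Wnt pathway had been activated, blocked or left unchanged. Members were taken by name, with earlier results of these data known. They were the genes with a single-gene probeset whose symbol was Osi with a number or began with Twdl, and 48 of the 11983 genes on the array qualified, 24 in each family, each with 1 probeset. A filter on low values, a log2 value above 2.5 on at least 2 arrays, was passed by 13 Osiris and 21 Tweedle genes, so 34 members entered the tests. TwdlJ, Osi10a and the pseudogene TwdlU had no single-gene probeset and were not analysed here.

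Osiris genes form a family found in insects, and most lie side by side in 1 cluster that has kept its order across species. They encode small proteins with a signal peptide or a membrane-spanning stretch, and several are active in epidermis and trachea while these cells lay down the first cuticle. Tweedle genes encode secreted structural proteins of the cuticle, the chitin-based coat that the epidermis builds late in embryogenesis. Dominant mutations of TwdlD give short, stout larvae, which gave the family its name. In canonical Wnt signalling the ligand Wg stabilises Arm, which enters the nucleus and joins TCF to switch targets on, and without Arm the same TCF holds targets off together with Groucho.

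All embryos came from mothers mutant for bcd (allele bcdE1), nos (allele nosL7) and tsl, a combination that takes away maternal patterning along the body axis, and these mothers carried da-Gal4, a driver active in nearly all cells. Wg++ embryos expressed the canonical ligand Wg, and arm∆N embryos a form of Arm (β-catenin) that escapes degradation. The tcf∆N-short embryos expressed a TCF without the regions that bind Arm and Groucho and without the C-clamp, whereas tcf∆N-long lacked the Arm-binding region alone. Both TCF forms carried an HA tag. The arm∆N-tcf∆N-short embryos expressed both proteins, DisArmed embryos a dominant negative Arm, and Otk++ embryos the co-receptor Otk. WT stands for naïve embryos without a transgene product. Each genotype was measured on 2 arrays, each with RNA of about 50 embryos collected between 4 and 16 h.

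The deposited values are log2 intensities after GC-RMA, from 2.289, the lowest value in the file, to 13.77. Values near the lowest carry no signal over background, so where the mean of a genotype lay under 3 the size of a change is a lower bound. A gene was called between 2 genotypes in limma at an absolute fold change above 1.5 and a false discovery rate (FDR) under 10%, adjusted over 8860 genes. The p-values use a spread pooled over all genotypes, with 2 arrays in each, and all 7 comparisons with WT share the same 2 WT arrays. The array measures whole embryos, where fewer cells of a type and less RNA per cell cannot be told apart. Of the genes that were overexpressed, otk read 7.62 and 7.67 in Otk++ and between 5.51 and 7.48 on the 14 other arrays, and wg, pan and arm were not analysed here, so that the labels of Wg++, arm∆N, DisArmed and the TCF genotypes were not checked on the gene they express.

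Of the 24 Osiris genes, 21 lay on chromosome 3R between positions 6173549 (Osi1) and 6341424 (Osi20) of the Release 6 assembly, a stretch of 167.9 kb, and all 13 that passed the filter lay there. The others were Osi21 on 2L and Osi22 and Osi23 elsewhere on 3R. The 11 that failed the filter were Osi1, Osi3, Osi4, Osi8, Osi10b, Osi11, Osi13, Osi16, Osi21, Osi22 and Osi23. Of these, 8 read under 2.3 on all 16 arrays, and none exceeded 2.59. Genes that failed lay between genes that passed along the cluster. The cluster held 4 other genes with a probeset. Of those only NPFR, a neuropeptide receptor gene at its Osi1 end, passed the filter.

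The Tweedle genes were spread more widely. A dense cluster of 11 members lay on 3R from 26619118 (TwdlM) to 26641054 (TwdlD), 21.9 kb with no other gene on the array, and 9 of them passed the filter. TwdlF, TwdlG and TwdlV lay together on 3R from 4247020 to 4255833, and TwdlX, TwdlY, TwdlZ and Twdlalpha on X from 16731091 to 16744365. TwdlE was on 2L, Twdlbeta on 2R, and TwdlW, TwdlQ, TwdlC and TwdlT elsewhere on 3R. TwdlR, TwdlS and TwdlZ failed the filter, with no value above 2.34.

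**Figure D1:**
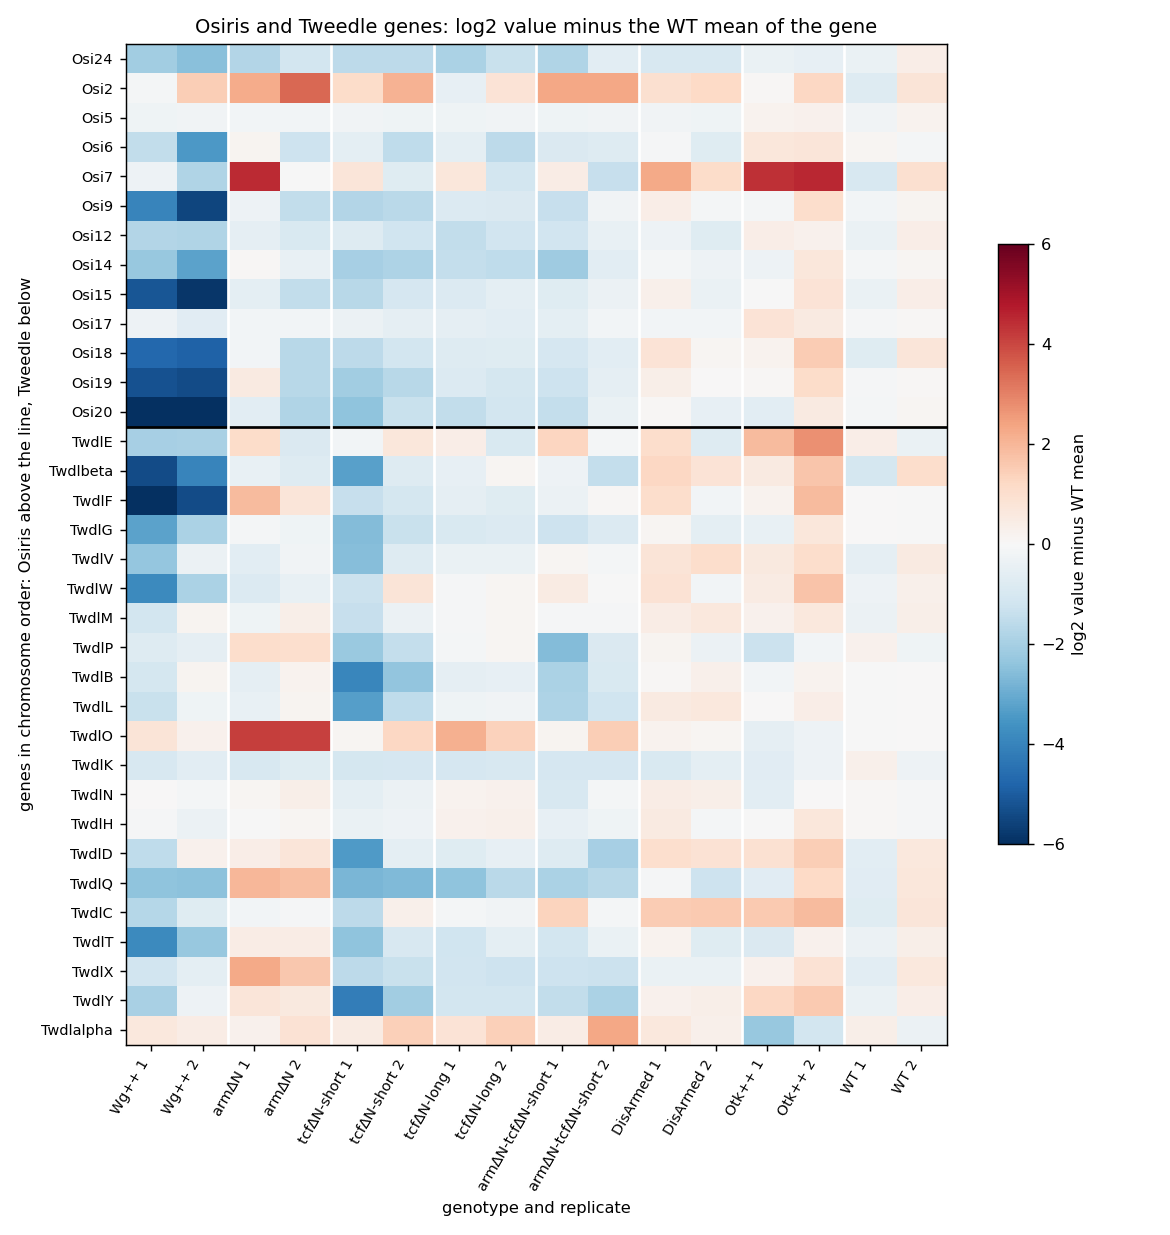
Log2 value of each of the 34 members on each of the 16 arrays, minus the mean of the gene in WT, in chromosome order, with Osiris genes above the line and Tweedle genes below it. Blue is lower and red higher than WT. The darkest blue block covers Osi20, Osi15, Osi19, Osi18, Osi9, TwdlF and Twdlbeta on the 2 Wg++ arrays.

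Across all genotypes, 15 of the 34 members passed limma's F test over the 7 comparisons with WT (FDR below 1%), 8 Osiris and 7 Tweedle genes. The share over all genes tested was 12.3%. The Osiris genes were Osi20, Osi15, Osi19, Osi18, Osi9, Osi14, Osi12 and Osi17, with adjusted p between 0.000109 and 0.00876. The Tweedle genes were TwdlF, TwdlO, TwdlX, TwdlQ, TwdlY, Twdlbeta and TwdlB, with adjusted p between 0.000208 and 0.00838. The count was 7 without either Wg++ array, 8 without either arm∆N array, and 9 without either array of tcf∆N-long or of DisArmed. Counted by the order of the 8 genotype means, with no test, Wg++ was the lowest genotype for 11 of the 13 Osiris genes and Otk++ the highest for 10. Among the 21 Tweedle genes tcf∆N-short was the lowest for 10 and Wg++ for 7, while Otk++ was the highest for 8, arm∆N for 6 and DisArmed for 5. Such ranks were not counted over all genes tested, so these counts do not set the families apart from other genes. Near the lowest value a rank can rest on a small difference. For Osi5 the mean was 2.41 in Wg++ and 2.43 in the genotype ranked next. For TwdlK the lowest mean was 2.35 and the next 2.38.

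In Wg++ embryos members of both families were lower, and no member was called higher. Of 34 members, 18 were lower than in WT, 9 of 13 Osiris and 9 of 21 Tweedle genes, and 16 did not pass. Over all genes tested 40.8% were called in this comparison, 22.1% lower and 18.8% higher. The median log2 fold change was −2.46 for the Osiris genes and −0.87 for the Tweedle genes, beside −0.11 for all genes. Without Wg++ replicate 1, 5 of the 21 Tweedle genes and 10 of the 13 Osiris genes were called lower, where 2378 of the 8860 genes were called in either direction.

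Osi20, at the far end of the cluster (3R, 6340095 to 6341424), read 3.06 and 3.12 in Wg++, against 9.74 and 9.98 in WT. The arrays lay far apart and without overlap. The change, −6.77 on the log2 scale with a standard error of 0.52 (adjusted p = 6.38e-05), was the most negative of the 8860 genes tested. Osi15 read 5.38 and 4.68 in Wg++, against 10.14 and 10.90 in WT. It kept a clear signal in Wg++ and fell by 5.49 on the log2 scale (standard error 0.44, adjusted p = 7.13e-05). Osi19 read 2.72 and 2.57 in Wg++, against 7.84 and 8.02 in WT. Both Wg++ arrays were near the lowest value, so its change of −5.28 (standard error 0.58, adjusted p = 0.000384) is a lower bound in size.

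Next along the cluster Osi18 read 2.89 and 2.78 in Wg++, against 6.87 and 8.37 in WT, a fall to near the lowest value, at −4.78 (adjusted p = 0.000659). Osi9 read 4.34 and 2.80 in Wg++, against 8.14 and 8.49 in WT, at −4.74 (adjusted p = 0.000659). Its Wg++ arrays differed more from each other than its WT arrays did, but did not reach them. Osi6, with a strong signal on every array, read 10.35 and 8.39 in Wg++, against 11.93 and 11.72 in WT, at −2.46 (standard error 0.63, adjusted p = 0.0123). Osi14, at −2.74, Osi24, at −2.28, and Osi12, at −1.77, were also called lower. None of these 4 genes had overlapping arrays, and Osi14 and Osi6 kept means of 6.82 and 9.37 in Wg++. The 4 Osiris genes that did not pass were Osi17, Osi7, Osi5 and Osi2. Osi17 and Osi5 lay near the lowest value in Wg++, and Osi7 and Osi2 had arrays that overlapped between Wg++ and WT.

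**Figure D2:**
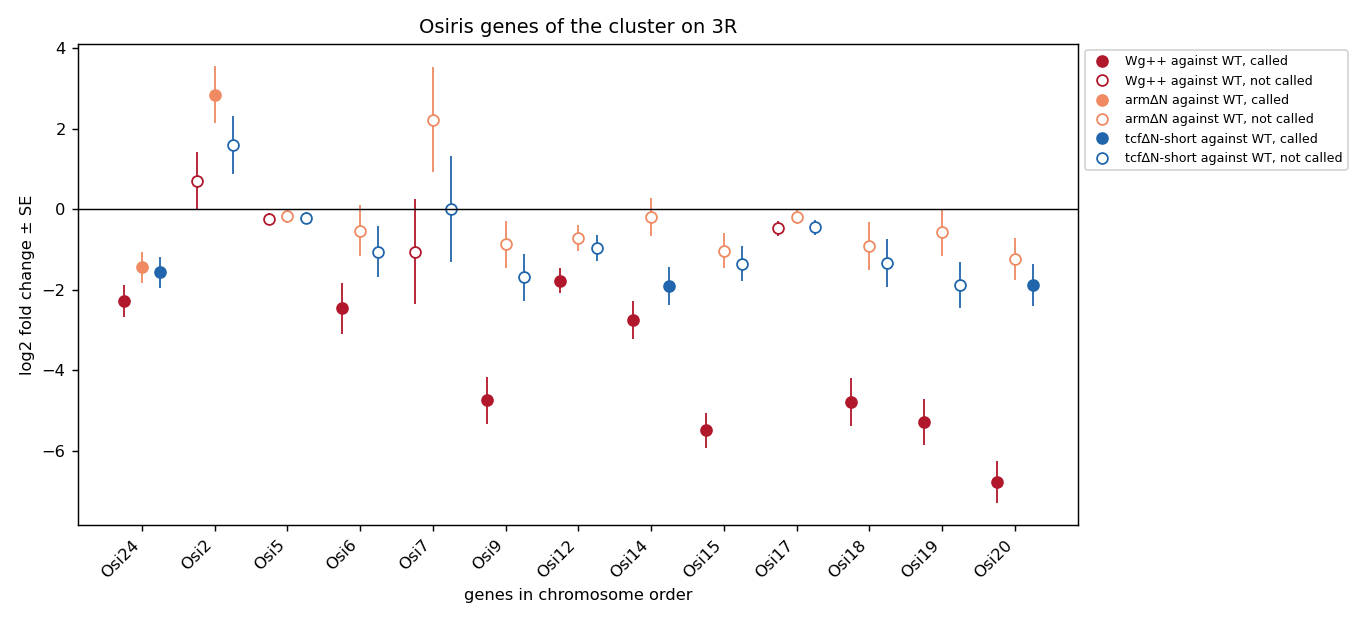
Log2 fold change against WT (± standard error of the limma fit) of the 13 Osiris genes that passed the filter, in the order of the cluster on 3R, in Wg++, arm∆N and tcf∆N-short. Filled points passed the test. In Wg++ the points of Osi15, Osi18, Osi19 and Osi20 lie between −4.78 and −6.77, below those of the other 2 genotypes, while Osi2 is the one gene with a called rise, in arm∆N.

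Among the Tweedle genes TwdlF, which neighbours TwdlG and TwdlV, read 2.49 and 3.19 in Wg++, against 8.58 and 8.57 in WT. The mean in Wg++ was near the lowest value, and the change of −5.74 (standard error 0.57, adjusted p = 0.000241) is a lower bound in size. In relation to the other genotypes, TwdlF was lowest in Wg++ with a mean of 2.84 ± 0.50 (SD, n = 2), followed by tcf∆N-short with 7.37 ± 0.24, tcf∆N-long with 7.95 ± 0.12, arm∆N-tcf∆N-short with 8.43 ± 0.31, WT with 8.58 ± 0.01, DisArmed with 9.03 ± 0.86, Otk++ with 9.62 ± 1.18 and arm∆N with 9.89 ± 0.86 (SD, n = 2 each). From arm∆N-tcf∆N-short upwards, neighbours in this order differed by less than the larger of their SDs. Osi19 followed this order except for arm∆N, whose mean was the highest for TwdlF but lay below WT for Osi19. The means of Osi19 were 2.65 ± 0.11 in Wg++, 6.05 ± 0.30 in tcf∆N-short, 6.99 ± 0.18 in tcf∆N-long, 7.05 ± 0.52 in arm∆N-tcf∆N-short, 7.36 ± 1.56 in arm∆N, 7.93 ± 0.13 in WT, 8.10 ± 0.23 in DisArmed and 8.51 ± 0.71 in Otk++ (SD, n = 2 each). From tcf∆N-long upwards its neighbours differed by less than the larger of their SDs.

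Twdlbeta read 2.45 and 3.86 in Wg++, against 6.76 and 8.87 in WT, at −4.67 (standard error 0.87, adjusted p = 0.0029). TwdlT read 3.48 and 5.03 in Wg++, against 6.93 and 7.62 in WT, at −3.03 (standard error 0.62, adjusted p = 0.00443). Neither gene had overlapping arrays, and in both replicate 2 of Wg++ was well above replicate 1. TwdlW at −2.85, TwdlG at −2.55, TwdlQ at −2.44, TwdlE at −1.97, TwdlX at −0.87 and TwdlK at −0.81 completed the 9 called genes with TwdlF. TwdlQ and TwdlK lay near the lowest value in Wg++, and TwdlX was the only called gene whose arrays overlapped.

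The dense cluster from TwdlM to TwdlD held few of the calls in Wg++. This division by place was made after the values were seen and has no test. Only TwdlK of its 9 genes was called, and the median change was −0.46. TwdlN read 12.78 and 12.61 in Wg++, against 12.80 and 12.67 in WT, and TwdlM 10.56 and 11.80 in Wg++, against 11.29 and 11.99 in WT. Both had a strong signal on every array, and their Wg++ and WT arrays overlapped. TwdlN differed by −0.04 (standard error 0.28, adjusted p = 0.94) and TwdlM by −0.46 (standard error 0.44, adjusted p = 0.448). Of the 12 Tweedle genes outside the cluster 8 were called lower.

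The 2 Wg++ arrays also differed within the Tweedle family. Replicate 2 was higher for 16 of 21 Tweedle genes, by a median of 1.01, whereas it was lower for 10 of 13 Osiris genes, by a median of 0.36. The median absolute difference between the 2 Wg++ arrays over all genes was 0.19.

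Values of other gene groups moved with these changes in Wg++, and their part in the result was not tested. Of 11 tested genes for the assembly of chitin and cuticle, 8 were lower and none higher in Wg++, with a median log2 fold change of −1.17. They included Gasp, a chitin-binding protein gene, at −2.34, and knk, needed for chitin organisation, at −1.57. Of 9 genes for zona pellucida proteins and denticle shape 3 were lower, among them dyl at −3.33, and 1 was higher. All 3 tested tracheal markers were lower, with mean log2 levels over 4 listed genes of 5.09 and 5.01 in Wg++ and of 5.98 and 5.99 in WT. Of 4 epidermal transcription factors 1 was called, SoxN at −0.72. Maternal egg transcripts were higher, 2 of 4 called, with mean log2 levels of 7.28 and 6.74 in Wg++ and of 4.43 and 4.49 in WT. Midgut markers were lower, 5 of 6 called, with mean log2 levels of 3.92 and 3.97 in Wg++ and of 6.07 and 5.74 in WT. In other lists 1 of 4 muscle, 1 of 3 hemocyte, 1 of 5 neuron and 1 of 6 amnioserosa markers were called lower. So were 2 of 8 cuticle tanning genes, and no gene of these lists was called higher. The medians, in this order, were −0.71, −0.63, −0.38, −0.28 and −0.57. Of 11 genes for ecdysone synthesis and response 2 were lower and 1 was higher.

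The activated form of Arm gave another picture. In arm∆N embryos 6 of 34 members were called, 4 higher and 2 lower, against 19.6% of all genes tested, 7.92% higher and 11.6% lower. The share of members called in either direction was thus close to that of all genes. Before adjustment 10 of 34 members (29.4%) had a limma p under 0.05, close to the 29.5% of all genes. The medians were −0.57 for Osiris and 0.13 for Tweedle genes, beside −0.08 for all genes. TwdlO, inside the dense cluster (3R, 26625932 to 26626738), read 7.38 and 7.32 in arm∆N, against 3.21 and 3.24 in WT. Both pairs of arrays were tight and far apart, and the gene rose by 4.12 on the log2 scale (standard error 0.44, adjusted p = 0.000411). No other genotype reached this level, the next being tcf∆N-long with 5.34 and 4.62.

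TwdlX read 6.15 and 5.50 in arm∆N, against 3.25 and 4.49 in WT, a rise of 1.95 (standard error 0.37, adjusted p = 0.00925). TwdlQ read 7.01 and 6.81 in arm∆N, against 4.36 and 5.69 in WT, a rise of 1.89 (standard error 0.60, adjusted p = 0.0618). For both genes the arm∆N arrays lay above every WT array, and TwdlQ was no longer called without either arm∆N array or without WT replicate 1 (adjusted p from 0.164 to 0.355). Osi2, the only Osiris gene called higher in arm∆N, read 8.98 and 10.19 in arm∆N, against 5.96 and 7.53 in WT, a rise of 2.85 (standard error 0.71, adjusted p = 0.0265). Its arrays were scattered in both genotypes, and without arm∆N replicate 2 or WT replicate 1 it did not pass (adjusted p = 0.158 and 0.188).

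The lower calls in arm∆N were Osi24 and TwdlK. Osi24 read 3.57 and 4.20 in arm∆N, against 4.92 and 5.72 in WT, at −1.44 (adjusted p = 0.0356), and did not pass without arm∆N replicate 1 or WT replicate 2 (adjusted p = 0.181 and 0.153). TwdlK, with 2.43 and 2.64 in arm∆N and 3.66 and 3.09 in WT, lay near the lowest value (−0.84, adjusted p = 0.0353), and did not pass without arm∆N replicate 1 or WT replicate 1 (adjusted p = 0.15 and 0.224). Osi7 was the least settled member, at 9.04 and 4.52 in the 2 arm∆N arrays. The 11 chitin and cuticle assembly genes had a median log2 fold change of 0.35 in arm∆N, and none of them was called. Of 9 zona pellucida and denticle shape genes 1 was lower and none higher (median −0.36). Of the 8 tanning genes, which harden and colour the cuticle, Ddc (1.54) and y (2.21) were higher. Tracheal markers were lower, 2 of 3 called, with mean log2 levels of 5.22 and 5.13 in arm∆N and of 5.98 and 5.99 in WT. Midgut markers were lower as well, 3 of 6 called, with mean log2 levels of 4.22 and 4.48 in arm∆N and of 6.07 and 5.74 in WT, and the part of these markers in the result was not tested.

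**Figure D3:**
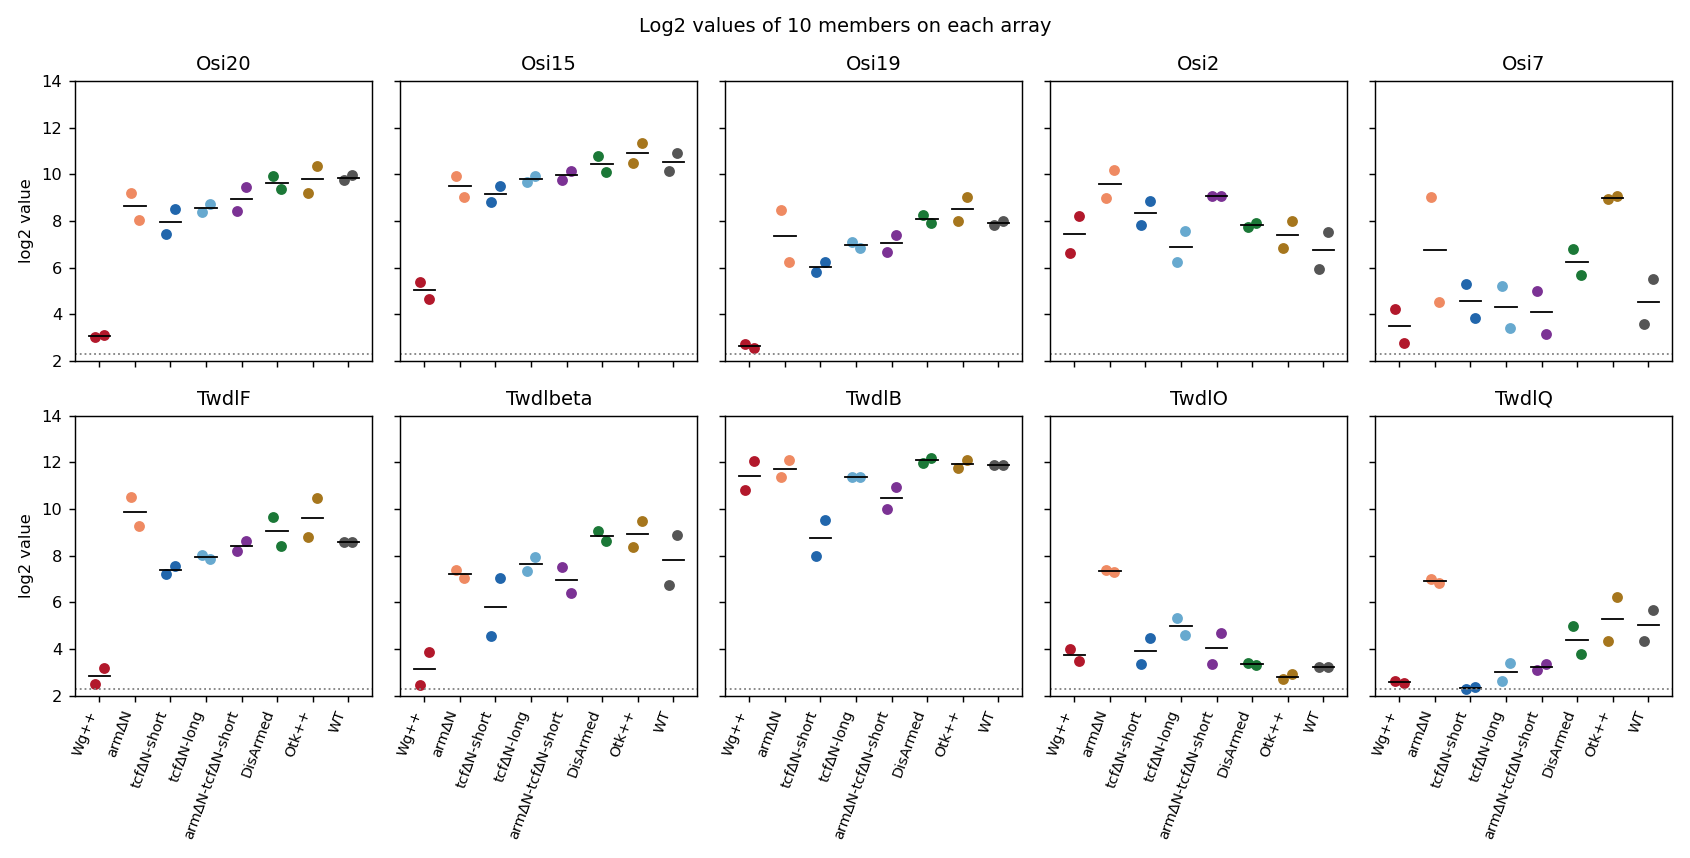
Log2 values of 10 members on each array by genotype, with WT on the right of each panel. Points are arrays, short lines are means of 2 arrays, and the dotted line is the lowest value in the file, 2.289. Osi20, Osi15, Osi19, TwdlF and Twdlbeta are lowest in Wg++, TwdlO and TwdlQ are highest in arm∆N, TwdlB is lowest in tcf∆N-short, and Osi7 is high on both Otk++ arrays and on 1 arm∆N array.

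Set against each other directly, the 2 activating genotypes differed in both families. In Wg++ 21 of 34 members were lower than in arm∆N, 10 Osiris and 11 Tweedle genes, and none was higher. Over all genes tested 37.1% were called, 18.4% lower and 18.7% higher in Wg++. TwdlF read 2.49 and 3.19 in Wg++, against 10.49 and 9.28 in arm∆N. At −7.04 (standard error 0.57, adjusted p = 0.000609) it was the most negative change of all 8860 genes in this comparison. Osi20 fell by 5.54 on the log2 scale (standard error 0.52, adjusted p = 0.000609), Osi19 by 4.71 (standard error 0.58, adjusted p = 0.00203) and TwdlQ by 4.33 (standard error 0.60, adjusted p = 0.0033). The medians were −2.55 for Osiris and −1.67 for Tweedle genes, beside −0.04 for all genes. All 11 chitin and cuticle assembly genes were lower in Wg++ than in arm∆N as well, and 5 of 8 tanning genes. Muscle markers fell too, with 3 of 4 called (median −1.30). Also lower were 2 of 6 midgut markers, 1 of 5 neuron markers and 1 of 4 epidermal transcription factors. Of 9 zona pellucida and denticle shape genes 3 were lower and 1 higher. Of 11 ecdysone genes 1 was lower and 1 higher, and 1 of 4 maternal egg transcripts was higher. No tracheal, hemocyte or amnioserosa marker was called. The part of these lists was not tested. With any single array left out 14 to 22 members were called, the lowest count without replicate 1 of Wg++ or without replicate 1 of arm∆N.

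In tcf∆N-short embryos the called members of both families were lower than in WT. Of 34 members 11 were lower than in WT, 3 Osiris and 8 Tweedle genes, none was higher and 23 did not pass. Over all genes tested 7.71% were called, 5.2% lower and 2.51% higher. The medians were −1.34 for Osiris and −1.47 for Tweedle genes, beside 0.002 for all genes. TwdlB read 7.99 and 9.51 in tcf∆N-short, against 11.89 and 11.89 in WT. Its arrays did not overlap, and the gene fell by 3.14 on the log2 scale (standard error 0.52, adjusted p = 0.00567). Its neighbour TwdlL read 7.21 and 8.96 in tcf∆N-short, against 10.45 and 10.54 in WT, at −2.41 (standard error 0.51, adjusted p = 0.0226).

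TwdlY, on X, read 4.26 and 6.33 in tcf∆N-short, against 8.04 and 8.81 in WT, at −3.13 (standard error 0.62, adjusted p = 0.0168). TwdlQ read 2.29 and 2.35 in tcf∆N-short, against 4.36 and 5.69 in WT, at −2.70 (standard error 0.60, adjusted p = 0.0298). TwdlQ was at the lowest value in tcf∆N-short, so its change is a lower bound in size. TwdlG at −1.96, TwdlP at −1.83, TwdlX at −1.47 and TwdlK at −1.02 were called too, the last 2 near the lowest value. The Osiris genes called were Osi14 (−1.91, adjusted p = 0.0453), Osi20 (−1.88, adjusted p = 0.0672) and Osi24 (−1.57, adjusted p = 0.0456), which kept means of 7.66, 7.98 and 3.76 in tcf∆N-short.

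The count of calls in tcf∆N-short changed strongly with the array left out. Counts over all genes in those fits are not given here. All 21 Tweedle genes were lower on replicate 1 of tcf∆N-short than on its replicate 2, by a median of 1.14, where the median absolute difference over all genes was 0.39. Maternal egg transcripts had a mean log2 level of 7.48 on replicate 1 and 5.42 on replicate 2, against 4.43 and 4.49 in WT, and midgut markers had mean log2 levels of 7.47 and 7.95, against 6.07 and 5.74 in WT, with 2 of 6 called higher. The part of both in the result was not tested. Without replicate 1 only TwdlB was still called, and without replicate 2 there were 14 calls. Without WT replicate 1 there were 7 and without WT replicate 2 there were 4, none of them an Osiris gene. The 11 chitin and cuticle assembly genes had a median log2 fold change of −0.56 in tcf∆N-short, and none of them was called. Of 9 zona pellucida and denticle shape genes 2 were lower and none higher (median −1.05). In other lists 1 of 8 tanning genes, 1 of 3 tracheal and 1 of 6 amnioserosa markers were lower.

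**Figure D4:**
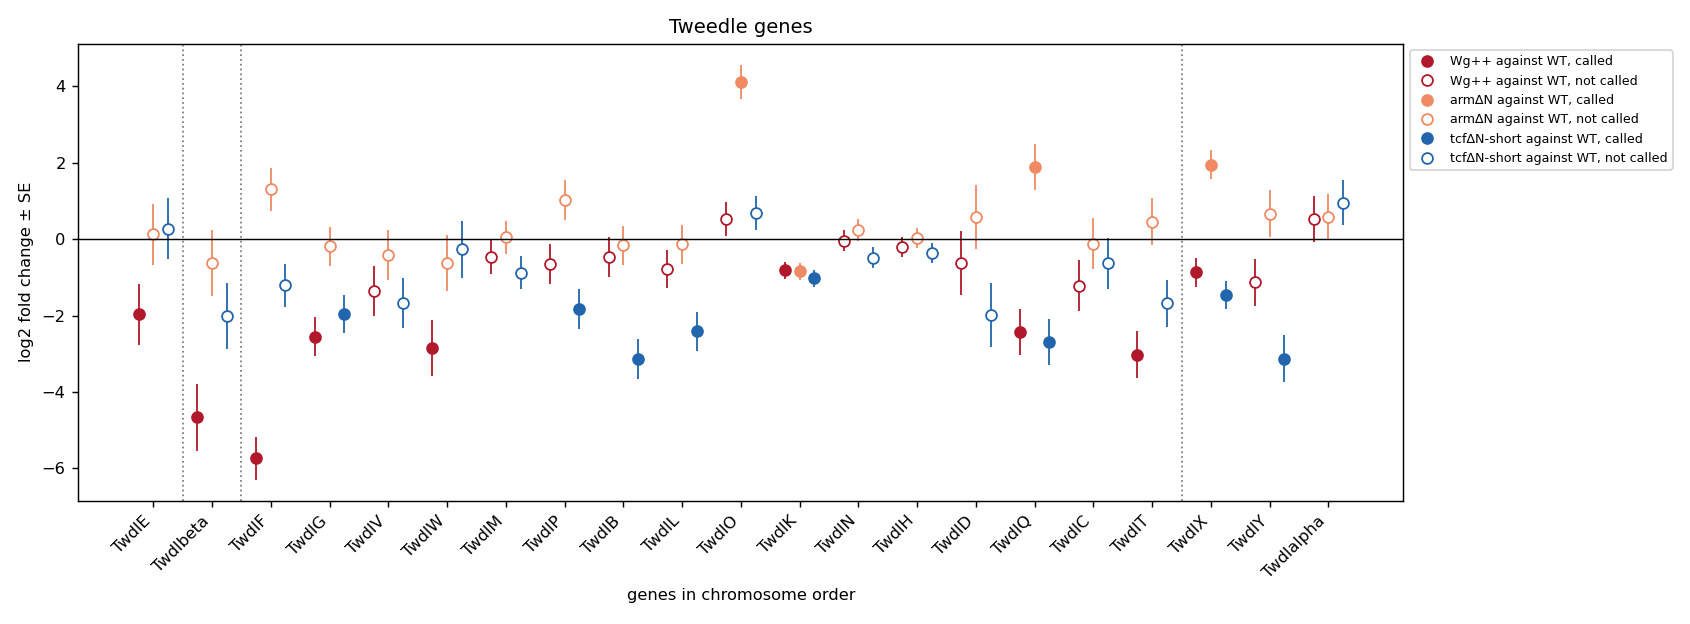
Log2 fold change against WT (± standard error of the limma fit) of the 21 Tweedle genes that passed the filter, in chromosome order with dotted lines between chromosomes 2L, 2R, 3R and X, in Wg++, arm∆N and tcf∆N-short. Filled points passed the test. In the dense cluster from TwdlM to TwdlD the lowest points are those of tcf∆N-short at TwdlB and TwdlL, and TwdlO stands out in arm∆N at 4.12.

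With the longer TCF fewer members were called than with tcf∆N-short. In tcf∆N-long 4 of 34 were called, against 3.72% of all genes tested, 1.48% higher and 2.25% lower. The medians were −0.85 for Osiris and −0.25 for Tweedle genes, beside −0.08 for all genes. TwdlO was higher, with 5.34 and 4.62 in tcf∆N-long and 3.21 and 3.24 in WT (1.75, standard error 0.44, adjusted p = 0.079), while Osi24 (−1.61, adjusted p = 0.0699), Osi12 (−1.31, adjusted p = 0.0699) and TwdlK (−0.996, adjusted p = 0.0546) were lower, TwdlK again near the lowest value. No member was called without either tcf∆N-long array, 1 was called without WT replicate 2, and 2 were called without any 1 array of Wg++ or DisArmed. Midgut markers were higher here too, 4 of 6 called, with mean log2 levels of 8.25 and 8.43 in tcf∆N-long and of 6.07 and 5.74 in WT, and their part in the result was not tested.

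Compared with each other, tcf∆N-short was lower than tcf∆N-long at 2 members and higher at none, against 3.19% of all genes called, 2.11% lower and 1.08% higher. TwdlB read 7.99 and 9.51 in tcf∆N-short, against 11.37 and 11.38 in tcf∆N-long, at −2.63 (standard error 0.52, adjusted p = 0.0307). TwdlL was at −2.17 (standard error 0.51, adjusted p = 0.064). Both genes lie in the dense cluster, and in both the tcf∆N-long arrays were nearly identical. Without tcf∆N-short replicate 1 or either tcf∆N-long array no member was called, without either DisArmed array there was 1 call, and without tcf∆N-short replicate 2 there were 7 calls.

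The combined genotype was also set against arm∆N, to see what tcf∆N-short adds. In arm∆N-tcf∆N-short 5 of 34 members were lower than in arm∆N, all of them Tweedle genes, and none was higher, against 11.6% of all genes called, 5.36% lower and 6.26% higher. TwdlQ read 3.12 and 3.35 in arm∆N-tcf∆N-short, against 7.01 and 6.81 in arm∆N, at −3.68 (standard error 0.60, adjusted p = 0.00332). TwdlO read 3.37 and 4.69 in arm∆N-tcf∆N-short, against 7.38 and 7.32 in arm∆N, at −3.32 (standard error 0.44, adjusted p = 0.000742). TwdlX read 2.65 and 2.58 in arm∆N-tcf∆N-short, against 6.15 and 5.50 in arm∆N, at −3.21 (standard error 0.37, adjusted p = 0.000274). These 3 are the Tweedle genes that were called higher in arm∆N than in WT, and the same arm∆N arrays enter both comparisons. TwdlP (−2.74) and TwdlY (−2.36) were the other 2. No Osiris gene was called by limma, and 1 of 13 had a p under 0.05 before adjustment, against 22.3% of all genes. Midgut markers moved in the same comparison, with 4 of 6 called higher and mean log2 levels of 8.18 and 8.71 in arm∆N-tcf∆N-short and of 4.22 and 4.48 in arm∆N. Of 3 tracheal markers 2 were higher, with mean log2 levels of 5.95 and 5.80 in arm∆N-tcf∆N-short and of 5.22 and 5.13 in arm∆N. The part of these markers in the result was not tested. Osi2 was 9.06 and 9.05 in arm∆N-tcf∆N-short, within the range of its arm∆N arrays.

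Against WT, arm∆N-tcf∆N-short had 1 called member of 34, TwdlK, at 2.38 and 2.38 against 3.66 and 3.09 in WT (−0.995, adjusted p = 0.05), where 3.17% of all genes were called, 1.47% lower and 1.7% higher. TwdlK lay near the lowest value, and it did not pass without WT replicate 1 or without either array of arm∆N-tcf∆N-short. There were 2 calls without either tcf∆N-short array and 3 without arm∆N-tcf∆N-short replicate 2, all lower, and without its replicate 1 the 1 call was higher.

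In DisArmed no member was called by limma, against 0.598% of all genes (0.237% higher and 0.361% lower). Before adjustment 3 of 34 members (8.82%) had a p under 0.05, close to the 7.54% of all genes. Without WT replicate 2 there was 1 call. In Otk++ no member was called by limma either, against 0.327% of all genes (0.124% higher and 0.203% lower). Before adjustment this held for 6 members (17.6%), close to the 16.8% of all genes. Without WT replicate 2 there were 5 calls in Otk++, 4 higher and 1 lower. Replicate 2 of Otk++ was above replicate 1 for all 21 Tweedle genes (median difference 0.66) and for 10 of 13 Osiris genes (0.87). The median absolute difference between these 2 arrays over all genes was 0.37. The fitted values were above WT for 26 of 34 members in Otk++, with medians of 0.45 for Osiris and 0.32 for Tweedle genes, beside −0.06 for all genes. Both family medians were smaller than the differences between the 2 Otk++ arrays. The highest was Osi7, with 8.93 and 9.09 in Otk++ and 3.59 and 5.52 in WT. Its arrays did not overlap, but the spread of Osi7 over all genotypes was wide, and its difference of 4.45 (standard error 1.31) had an adjusted p of 0.176. Twdlalpha went the other way, with 2.33 and 3.52 in Otk++ and 4.98 and 4.26 in WT (−1.69, standard error 0.60, adjusted p = 0.209). Osi7 and Twdlalpha were singled out after their values were seen.

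**Figure D5:**
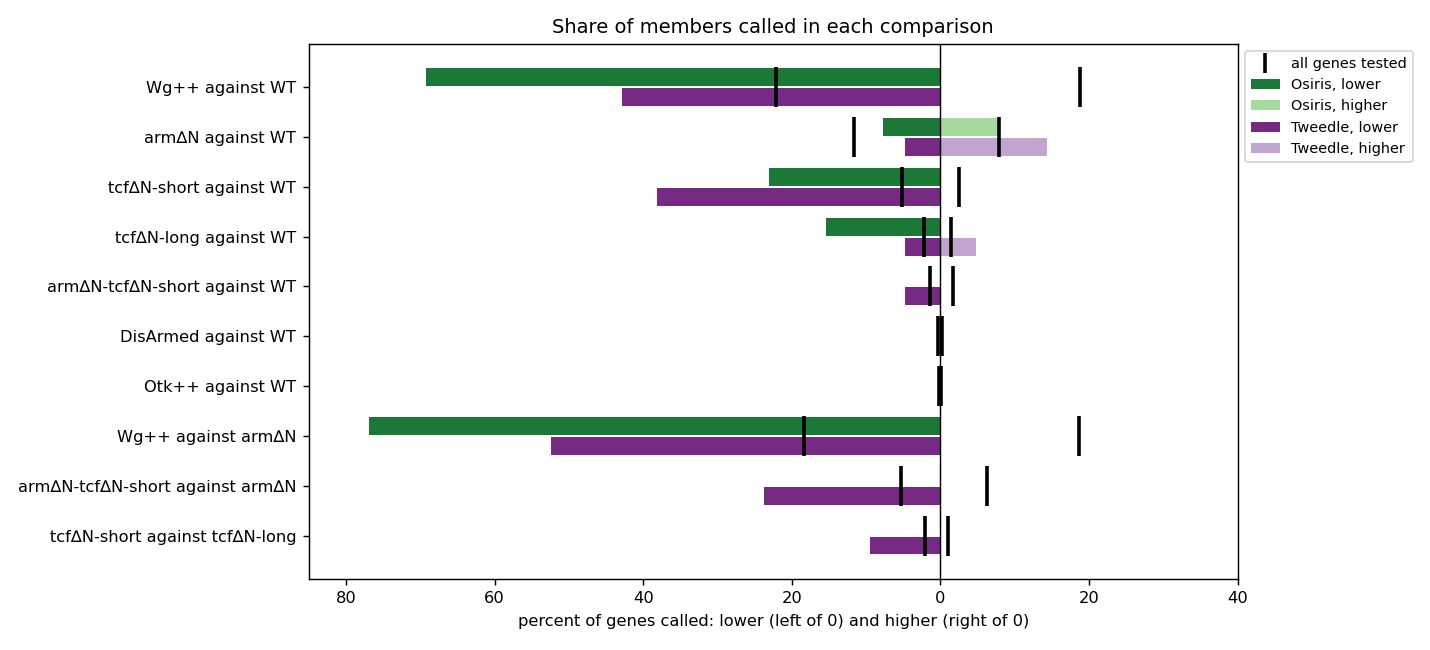
Percent of the 13 Osiris and 21 Tweedle genes called lower (left of 0) and higher (right of 0) in each of 10 comparisons, with black ticks for the percent of all 8860 genes tested. Bars are longest to the left in Wg++, against WT and against arm∆N, and absent for DisArmed and Otk++.

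Correlations between members were taken over the 16 arrays, which include the genotype differences above, so the coefficients describe these arrays only. The median Pearson correlation was 0.72 over the 78 pairs of Osiris genes, 0.47 over the 210 pairs of Tweedle genes and 0.43 over the 273 pairs across the families. The Tweedle median was thus close to that across the families. Correlations were below 0 for 8 Osiris pairs, 30 Tweedle pairs and 33 pairs across the families. Osi15 and Osi20 had the highest, 0.990, and among Tweedle genes TwdlB and TwdlL, with 0.961, which lie next to each other. TwdlD and TwdlY, on different chromosomes, were at 0.948. Across families the closest pair was Osi19 and TwdlF, at 0.949. Osi2, TwdlO and Twdlalpha stood apart from their own family means, at 0.02, 0.19 and −0.29.

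The mean z-scores of the 2 families correlated at 0.719 over the 16 arrays. Outside the families, the 5 genes closest to the Osiris mean were knk (0.966), CG43333 (0.959), dyl (0.953), Hmgs (0.943) and CG15239 (0.942). Both knk, which organises chitin, and dyl, a zona pellucida protein gene, act at the apical surface of the epidermis. Closest to the Tweedle mean were the homeobox gene Ptx1 (0.981), CG30427 (0.976), emp (0.955), Elovl7 (0.955), a fatty acid elongase gene, and CG9747 (0.954). Among members the closest to their own family mean were Osi18 (0.940) and TwdlG (0.955), below knk and Ptx1.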

How the data were processed

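RNA of 16 arrays (8 genotypes, 2 arrays each, biological replicates per the labels) was measured on Affymetrix Drosophila 2 arrays. The authors normalised them with GC-RMA, and the deposited values are log2 intensities, 1 per probeset. The GC-RMA version is not given in the sources used here. Background correction sets absent transcripts to a common lowest value and compresses changes of weak genes. The values carry no counts, and the number of arrays limits the precision.

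Of 18952 probesets, 13647 mapped to 1 gene, 402 to several and 4903 to none, and 13544 matched the RefSeq gene table (assembly Release 6 plus ISO1 MT), the source of symbols and positions. Each gene was represented by its probeset of largest interquartile range, and genes off the main chromosome arms were left out. Genes above 2.5 on at least 2 arrays were fitted with limma 3.58.1 in R 4.3.3, with 1 coefficient per genotype and eBayes (8 residual and 2.72 prior degrees of freedom), and Benjamini-Hochberg adjustment over all genes. Members and lists were chosen with earlier results of these data known. Named members were Osi19 and TwdlF, the 2 of each family with the highest mean (Osi6, Osi15, TwdlN and TwdlM), up to 3 called members per family and comparison with the largest change without overlap of arrays, and called members against the majority of their family. The fit was tested on simulated data.

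Each result was recomputed without the expression filter, with its minimum at 4, with probesets chosen by highest mean, a trended and robust prior, cyclic loess, replicate number as a block, a lower FDR (5% in place of 10%), a fit of only the 2 genotypes compared, and each array left out in turn. Arrays that express Wnt4 and promoter sequences were not analysed here.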

Additional observations from a re-analysis of the deposited data

Results flagged for a closer look

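For 3 of the 34 members the effect of arm∆N differed between embryos with and without tcf∆N-short, tested as the interaction in limma. Over all genes tested 11.2% were called, so the members were not called more often than other genes. The difference was −4.01 for TwdlO (standard error 0.63, adjusted p = 0.00825), and it passed without each of the 8 arrays involved (adjusted p from 0.00414 to 0.0356). It was −1.75 for TwdlX (standard error 0.53, adjusted p = 0.0828) and 1.80 for Osi24 (standard error 0.55, adjusted p = 0.0845). TwdlX did not pass without 6 of the 8 arrays, with adjusted p up to 0.21, and Osi24 without 5 of the 8, with adjusted p up to 0.214. These alternatives were chosen after the data were seen. TwdlX in the 2 genotypes with tcf∆N-short lay near the lowest value, so that its difference is bounded there.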

How the results depend on the processing

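No member was called higher in Wg++ under any alternative run, and lower calls numbered 15 to 19 against WT and 14 to 22 against arm∆N. No named member changed direction. Cyclic loess moved the median of all genes in Wg++ against WT to −0.01, beside −0.11 in the deposited values, and left 17 members called lower. Without the expression filter 7 members were altered in any genotype, 6 were called in tcf∆N-short, 2 in tcf∆N-long and 1 in tcf∆N-short against tcf∆N-long. With the filter at 4, none was called in arm∆N-tcf∆N-short. Cyclic loess left 2 in tcf∆N-long. At an FDR of 5% (0.5% for any genotype), 9 were altered in any genotype, 7 were called in tcf∆N-short, 0 in tcf∆N-long and 1 in tcf∆N-short against tcf∆N-long. A fit of only the 2 genotypes compared called 1 in arm∆N, 1 in tcf∆N-short, and none (0) for the tcf∆N-long and arm∆N-tcf∆N-short comparisons with WT or for the 2 TCF forms compared, with fewer degrees of freedom.

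With 1 array left out, counts ran from 7 to 15 for any genotype, 4 to 7 in arm∆N, 1 to 14 in tcf∆N-short, 0 to 5 in tcf∆N-long, 1 to 3 in arm∆N-tcf∆N-short, 0 to 1 in DisArmed, 0 to 5 in Otk++, 0 to 7 in tcf∆N-short against tcf∆N-long and 4 to 7 in arm∆N-tcf∆N-short against arm∆N. Where the cause of a moved count is not given, it was not tested. Apart from 1 count in Wg++ against WT, counts over all genes under these alternatives are not given here. A change in the calls of all genes and a change in the members cannot be told apart from these counts.

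Replicate numbers pair nothing in the labels. The differences of replicate 2 minus 1 correlated between genotypes at −0.53 to 0.68, with a median of 0.26, and 20 of 28 pairs were above 0.1. Whether arrays with the same replicate number share a batch was not tested. With the replicate block, 18 members were called in tcf∆N-short (1 higher), 4 in arm∆N-tcf∆N-short, 2 in Otk++, 5 in tcf∆N-short against tcf∆N-long, 8 in arm∆N-tcf∆N-short against arm∆N and 21 in any genotype. Counts over all genes with the block are not given here, so these counts do not set the families apart from other genes.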
